A study of Caenorhabditis elegans with 54 samples.

Results

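The libraries described here come from sucrose gradients of whole Caenorhabditis elegans in which the free large ribosomal subunit (60S), single ribosomes (80S) and polysomes were pooled, and from the total RNA of the same lysates. They are 6 of the 54 libraries of the series and 2 of its 18 groups, 3 libraries a group, chosen by their labels alone. The series as a whole measured RNA bound to FLAG-tagged ribosomes in several tissues and RNA of gradient fractions by RNA sequencing. Both groups came from strain MSD470, genotype rpl-22(wbm58), in which the endogenous rpl-22 gene carries a FLAG tag, so the controls carry the tag too and every tissue has it. The worms were gravid day 1 adults grown at 20 °C on E. coli OP50, about 12000 per replicate, lysed with 1 mM cycloheximide, which holds ribosomes on mRNA. About 400 µg of RNA was spun through a 15 to 60% sucrose gradient at 39000 g for 3 h, and part of each cleared lysate was kept as total RNA. Gravid adults hold embryos, so embryonic RNA is part of every library. The comparison experiments, each with 3 fraction and 3 total libraries, used polysome fractions only, one in the same tagged strain and one in untagged wild-type Bristol N2.

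A translating mRNA carries one or more ribosomes, and in a sucrose gradient it travels further the more ribosomes it holds. The 80S peak holds mRNAs with a single ribosome, together with empty monosomes, and the 60S peak holds large subunits that are not engaged; anything else that sediments at those depths is collected with them. An mRNA that is stored without ribosomes stays nearer the top of the gradient, and mRNAs made inside mitochondria are translated by mitochondrial ribosomes. In the adult worm, oocytes store many mRNAs under repressors that release them in the embryo.

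Values are the authors' normalized counts per gene, which put the libraries of a table on one scale, and the log2 ratio is the fraction mean minus the total mean of log2(value + 1), so that 1 stands for a doubling relative to the other mRNAs of the same library. Of 17847 genes listed, 14824 averaged at least 10 and were tested with limma; a gene is said to have risen or fallen when its adjusted p was under 0.05. Sums of normalized counts were 33627536 to 39750658 per library, and read depth, estimated from the steps between low values, was about 28900000 to 60700000 reads. Correlations across genes were 0.983 to 0.992 within a group and 0.957 to 0.975 between groups; fraction replicate 3 lay furthest from the totals. Whether the replicates were separate cultures is not stated in the labels, so p-values here measure the spread between libraries alone. All 30 intestine, 30 body wall muscle and 50 germline markers were above 0 in all 6 libraries, as were 19 of 20 pharynx, 29 of 30 epidermis and 39 of 40 neuron markers. The labels give the tissue as all tissues. The tagged gene itself, rpl-22, measured 47720.4, 49621 and 52429 in the total libraries and 87870.5, 75218 and 117039.5 in the fraction libraries, with no overlap (log2 ratio 0.88 ± 0.20 (SE), adjusted p = 0.00276).

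In the pooled fractions 3049 genes (20.6% of those tested) rose and 3423 (23.1%) fell. The median log2 ratio over all genes was 0.00. A median near 0 goes with scaling the libraries to each other and does not measure how much mRNA the fractions held. mRNAs of sperm, of small secreted proteins, of the nuclear-encoded respiratory chain and of the ribosome rose more often than they fell, and stored maternal, mitochondrially encoded and histone mRNAs, pseudogenes and noncoding RNAs fell more often than they rose. Every fraction library lay above every total library in 25.9% of genes and below in 27.2%. The authors' deposited table called 2283 genes (15.9% of 14387) higher and 2926 (20.3%) lower.

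**Figure D1:**
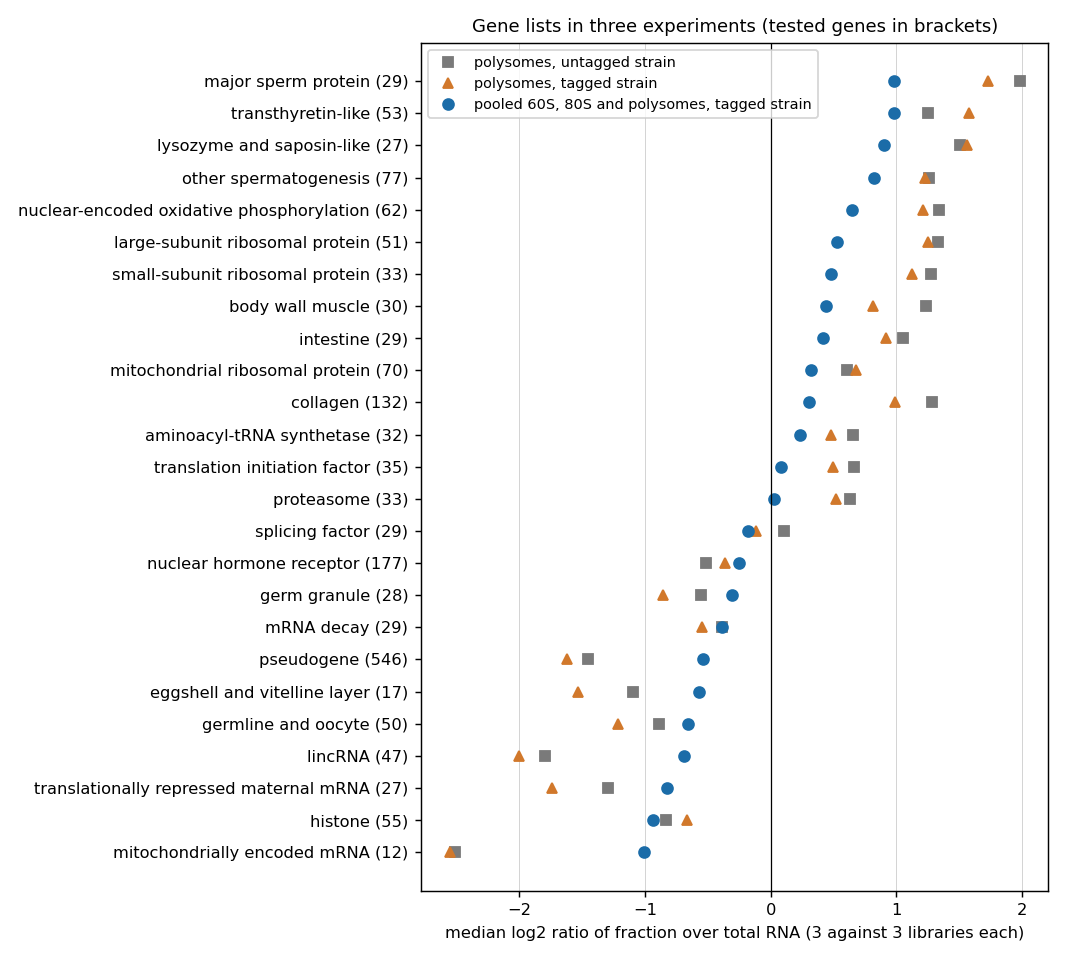
Median log2 ratio of fraction over total (x axis) for 25 gene lists, each with 3 points, for the pooled 60S, 80S and polysome fractions, the polysomes of the tagged strain and the wild-type polysomes. Major sperm protein, transthyretin-like and lysozyme lists lie furthest right and mitochondrially encoded and histone lists furthest left in the pooled fractions, and most pooled medians lie nearer 0 than those of both polysome experiments.

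Sperm mRNAs stood among the highest. In a gravid hermaphrodite sperm are already made, and their proteins serve motility and fertilization. Of 29 major sperm protein mRNAs, which encode the nematode sperm cytoskeletal protein, 28 rose and none fell (median log2 ratio 0.98), and 28 rose whichever single library was left out. The msp genes are near-identical copies, so the split of reads among them is uncertain. msp-57 measured 6455, 7286 and 7208 in the total libraries and 16014, 12429 and 16970.3 in the fraction libraries. Each fraction library held more than 1.5 times the highest total (log2 ratio 1.11 ± 0.16 (SE), adjusted p = 0.000115). msp-19 gave 7259, 8057 and 7946 in the total libraries and 17559.9, 13395 and 18295 in the fraction libraries (1.07, adjusted p = 0.000151 for the log2 ratio). Of 77 other sperm mRNAs, 53 rose and 5 fell (median 0.82). Among them cylc-1, an ortholog of the mammalian sperm head protein cylicin, measured 2579.9, 2218 and 2275 in the total libraries and 6589, 4728 and 8098 in the fraction libraries (log2 ratio 1.43 ± 0.18 (SE), adjusted p = 4.38e-05), and its relative cylc-2 rose by 1.28. sss-1 moved the other way, with 4727, 4368 and 4355 in the total libraries and 1235, 1298 and 1529 in the fraction libraries (-1.73, adjusted p = 1.65e-06 for the log2 ratio), and spe-39, which acts in vesicle sorting, fell by 1.27 on the log2 scale. As a share of all normalized counts, the major sperm protein list went from 0.333 ± 0.0153% to 0.667 ± 0.0671% (SD, n = 3).

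Of 27 lysozyme and saposin-like mRNAs, whose products attack bacteria in the gut, 24 rose and none fell (median 0.90). spp-5, a saposin-like antimicrobial peptide (WBGene00004990, chromosome X, 7319937 to 7320354, WBcel235), measured 7598, 8186 and 8454 in the total libraries and 18132, 15736 and 22279 in the fraction libraries. The fraction libraries lay well above the totals, with no overlap (log2 ratio 1.198 ± 0.16 (SE), adjusted p = 6.98e-05). ilys-5, an invertebrate-type lysozyme, rose by 0.72. Of 53 transthyretin-like mRNAs, a large nematode family of mostly secreted proteins, 39 rose and 1, ttr-53, fell (median 0.98); ttr-16 rose by 1.196, ttr-15 by 1.14 and ttr-42 by 1.33. Of 116 neuropeptide and insulin-like peptide mRNAs 34 rose (29.3%, against 20.6% of all genes) and 10 fell (median 0.27). Those that fell numbered 6 without total replicate 1 and 5 without total replicate 2. nlp-27, a neuropeptide-like peptide, measured 2437, 2369.7 and 2399.02 in the total libraries and 7558, 5072 and 6799 in the fraction libraries (log2 ratio 1.41 ± 0.16 (SE), adjusted p = 1.93e-05), nlp-28 rose by 1.29 and nlp-29, an antimicrobial peptide of the epidermis, by 1.22. The C-type lectin family was mixed, with 39.4% of those tested higher and 8.65% lower (median 0.42), and its abundant member clec-87 fell from 36978, 46778 and 49808 in the totals to 18609.8, 15504 and 14765 in the fractions (log2 ratio -1.45 ± 0.18 (SE), adjusted p = 3.48e-05).

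Nuclear-encoded mRNAs of oxidative phosphorylation, which encode the respiratory chain and ATP synthase, rose as a body: 47 of 62 passed upward, none downward, with a median of 0.65. The count lay between 38 and 50 when single libraries were left out. nduv-3, a complex I subunit, measured 1463, 1473 and 1675 in the total libraries and 4016, 3483 and 4462 in the fraction libraries (log2 ratio 1.37 ± 0.14 (SE), adjusted p = 1.20e-05). cox-5A, a cytochrome oxidase subunit, measured 16019, 18982 and 18541 in the total libraries and 34713, 27380.3 and 36798 in the fraction libraries (0.88, adjusted p = 0.000977 for the log2 ratio), and ndub-3, of complex I, rose by 1.0996. In all 3 the fraction libraries lay above every total. The list took 1.39 ± 0.0474% of normalized counts in the totals and 2.03 ± 0.134% in the fractions (SD, n = 3). Glycolysis had 3 mRNAs of 19 higher (15.8%, against 20.6% of all genes) and 1 lower (5.26%, against 23.1%). The faller, hxk-1, a hexokinase, measured 16380.0, 17113 and 18764 in the total libraries and 8395, 8124 and 7129 in the fraction libraries (log2 ratio -1.14 ± 0.15 (SE), adjusted p = 5.16e-05). The glycolysis risers numbered 1 without total replicate 1, total replicate 3 or fraction replicate 1, and 6 without fraction replicate 3.

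The 12 mRNAs of the mitochondrial genome went the other way: 10 fell and none rose (median -1.01). They encode core subunits of the same respiratory complexes. ND1, a complex I subunit, measured 27885, 17058 and 25333 in the total libraries and 9086, 11298 and 12059 in the fraction libraries (log2 ratio -1.09 ± 0.19 (SE), adjusted p = 0.000516). Its lowest total exceeded its highest fraction value. ND6 measured 13546, 7447 and 16347 in the total libraries and 3003, 4196 and 4814 in the fraction libraries (-1.59, adjusted p = 0.000201 for the log2 ratio). ND4L fell by 1.64 and ND5 by 0.80 on the log2 scale. COX1, the catalytic subunit of cytochrome oxidase, measured 107649, 95301 and 120873 in the total libraries and 75261, 99731 and 97124 in the fraction libraries, with overlapping groups (-0.26, adjusted p = 0.322), and CYTB likewise did not pass (-0.26, adjusted p = 0.285). COX3 measured 57915, 42959.7 and 58478 in the total libraries and 28037, 34733 and 41229 in the fraction libraries (-0.62, adjusted p = 0.0205); its adjusted p was 0.0622 without total replicate 1, 0.1 without total replicate 3 and 0.07 without fraction replicate 1. The list held 0.946 ± 0.167% of normalized counts in the totals and 0.641 ± 0.143% in the fractions (SD, n = 3), and the groups met at 0.754%, the value of both total replicate 2 and fraction replicate 2.

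**Figure D2:**
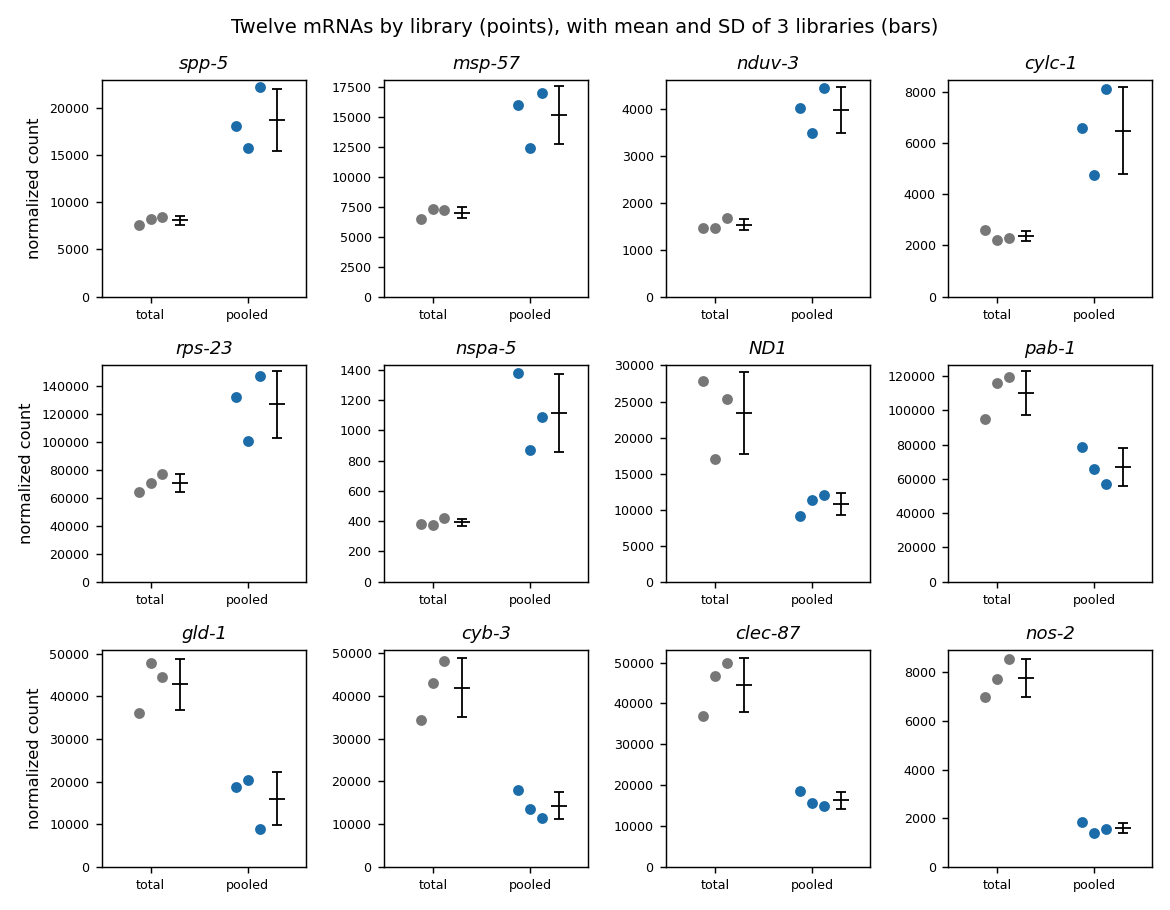
Normalized count (y axis, linear, from 0) of 12 mRNAs in each of the 3 total and 3 pooled fraction libraries; points are libraries and bars the mean ± SD. spp-5, msp-57, nduv-3, cylc-1, rps-23 and nspa-5 lie higher in every fraction library, and ND1, pab-1, gld-1, cyb-3, clec-87 and nos-2 lie lower in every one.

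Ribosomal protein mRNAs rose more often than they fell. Of 51 large-subunit ribosomal protein mRNAs 29 rose (56.9%, against 20.6% of all genes) and 1 fell (median 0.53). Of 33 small-subunit mRNAs 13 rose (39.4%) and 1 fell (median 0.48). Both counts depended on single libraries: the large-subunit risers numbered 14 without total replicate 1, 13 without total replicate 2, 16 without total replicate 3 and 13 without fraction replicate 3, and the small-subunit risers 7 without total replicate 1, 6 without total replicate 2 and 21 without fraction replicate 2. rpl-11.1, a large-subunit protein, measured 32217, 36718 and 37974 in the total libraries and 72012, 60688 and 91609 in the fraction libraries (log2 ratio 1.05 ± 0.19 (SE), adjusted p = 0.000628), and rps-23, of the decoding centre, measured 64296, 70923 and 76819 in the total libraries and 132689.8, 100666 and 147703 in the fraction libraries (0.83, adjusted p = 0.00455 for the log2 ratio). Both had every fraction library above every total. rpl-25.1 was the large-subunit mRNA that fell, with 10878, 14561 and 13942 in the total libraries and 9959, 7353 and 7331 in the fraction libraries (-0.68, adjusted p = 0.0057). rps-12 fell among the small-subunit mRNAs, with 69560.2, 77213 and 90718 in the total libraries and 56021, 40957 and 57094 in the fraction libraries (-0.63, adjusted p = 0.0185), but its adjusted p was 0.0644 without total replicate 2, 0.105 without total replicate 3 and 0.0664 without fraction replicate 2. rla-0, the stalk protein P0, did not pass (-0.39, adjusted p = 0.152), but did with libraries scaled to equal sums (adjusted p = 0.0138). As a share of normalized counts the large-subunit list went from 7.82 ± 0.331% to 10.9 ± 1.16% and the small-subunit list from 5.39 ± 0.239% to 7.44 ± 0.742% (SD, n = 3). Of 70 mitochondrial ribosomal protein mRNAs 30 rose (42.9%, against 20.6% of all genes) and 2 fell (median 0.32). Without total replicate 2, where 2321 of all 14827 genes tested rose, the mitochondrial risers numbered 15. Their fallers numbered 0 without fraction replicate 1 or any single total replicate, and 4 without fraction replicate 3. The mRNA of mrps-12 rose by 1.08.

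Translation factor mRNAs went both ways. Of 35 initiation factor mRNAs 10 rose (28.6%, against 20.6% of all genes) and 5 fell (14.3%, against 23.1%), with a median of 0.09. The risers numbered 4 without total replicate 1 and 6 without total replicate 2 or fraction replicate 3, and the fallers 3 without total replicate 3. eif-1.A, which binds the small subunit at the start codon, measured 12608, 13697 and 14345 in the total libraries and 27845, 22162 and 27636 in the fraction libraries (log2 ratio 0.93 ± 0.16 (SE), adjusted p = 0.000416). iff-1, a germline eIF5A, rose by 0.80 and eif-2alpha by 0.75. eif-4A3, of the exon junction complex, fell by 0.84. pab-1, the poly(A)-binding protein, measured 95156, 115840.0 and 119289 in the total libraries and 78725, 65914 and 56716 in the fraction libraries, with no overlap (-0.72, adjusted p = 0.00949); its adjusted p was 0.056 without total replicate 2 and 0.0564 without total replicate 3. The abundant elongation factor mRNAs did not pass (eef-1A.1 0.03, adjusted p = 0.922; eef-2 0.12, adjusted p = 0.68). Of 32 aminoacyl-tRNA synthetase mRNAs 9 rose (28.1%, against 20.6% of all genes), 4 without total replicate 1 and 5 without total replicate 2. qars-1 rose by 0.60 and rars-2 fell by 0.69 on the log2 scale.

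Stored maternal mRNAs included nos-2 and pal-1, the furthest fallers among protein-coding mRNAs with a gene name, at least median abundance and no overlap between groups. Of 27 maternal mRNAs with known translational repressors, 25 fell and none rose (median -0.82), and 20 to 27 fell when single libraries were left out. nos-2, a Nanos protein of the primordial germ cells (WBGene00003784, chromosome II, 7065618 to 7067051, 5 exons), measured 6989, 7706 and 8558 in the total libraries and 1836, 1388 and 1566 in the fraction libraries. Every fraction library lay far below the lowest total (log2 ratio -2.28 ± 0.15 (SE), adjusted p = 3.84e-07). pal-1, the Caudal homeodomain protein of posterior fate, measured 5541, 6005 and 6535 in the total libraries and 1438, 1586 and 972 in the fraction libraries (-2.20, adjusted p = 1.52e-06 for the log2 ratio). spn-4, an RNA-binding protein of the early embryo, measured 35949.5, 39408 and 40866 in the total libraries and 12889.7, 12535 and 10081 in the fraction libraries (-1.72, adjusted p = 5.45e-06), and zif-1, a substrate adaptor for protein degradation, mom-2, a Wnt, and puf-6, a Pumilio family protein, fell by 1.54, 1.40 and 1.33. gld-1, the RNA-binding repressor of the germ line, measured 36115, 47764 and 44619 in the total libraries and 18769.7, 20384 and 8915 in the fraction libraries (log2 ratio -1.50 ± 0.26 (SE), adjusted p = 0.00041); fraction replicate 3 was the lowest. cyb-3, a B-type cyclin, measured 34477, 43151 and 48196 in the total libraries and 17898, 13605 and 11536 in the fraction libraries (-1.56, adjusted p = 4.06e-05), nos-1 fell by 1.62, and puf-5, a Pumilio protein of oocytes, fell from 42545, 48920.1 and 53826 to 28275, 24149 and 21653 (-0.97, adjusted p = 0.000571). glp-1, the germline Notch receptor, did not pass (log2 ratio -0.40), but did without fraction replicate 1 (-0.58, adjusted p = 0.0181). The list held 1.99 ± 0.0973% of normalized counts in the totals and 1.202 ± 0.144% in the fractions (SD, n = 3).

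The wider germline programme fell with them. Of 50 germline and oocyte mRNAs 35 fell and none rose (median -0.66). That list includes gld-1, cyb-3, nos-1 and puf-5, described above, so it is not wholly a further set of genes. Of 17 eggshell and vitelline layer mRNAs 10 fell and 1 rose (median -0.57). perm-2, which seals the eggshell, was the riser, with 7903, 11341 and 9564 in the total libraries and 16660.3, 14079 and 14372 in the fraction libraries (log2 ratio 0.66 ± 0.17 (SE), adjusted p = 0.00546). perm-3 fell by 1.06, and mbk-2, a kinase of the oocyte-to-embryo switch, by 1.03; cpg-1, a chondroitin proteoglycan, did not pass (-0.54, adjusted p = 0.0685), but did without fraction replicate 1 (-0.75, adjusted p = 0.00820), with equal sums (0.0107) and in the authors' deposited table (0.0318). Of 28 germ granule mRNAs 13 fell and 2 rose, 1 without total replicate 1; meg-1 and meg-3, P granule proteins, fell by 1.24 and 0.97, and pgl-2 rose by 0.74. The summed normalized counts of the 50 germline markers were 526688 to 656217 in the totals and 296297 to 386920 in the fractions, and those of the 30 intestine markers 203393 to 252150 and 310291 to 377002. The level of such a sum in whole worms cannot tell fewer cells of a type from less RNA per cell; fraction and total RNA came from the same lysates, so the number of cells is shared between the groups compared.

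The 12 abundant protein-coding mRNAs with a gene name that fell furthest also held, beside nos-2 and pal-1, gmn-1, encoding geminin, an inhibitor of replication licensing (-2.18), cdc-25.3, a Cdc25 phosphatase (-2.16), lin-7, a PDZ protein (-2.14), bcl-7 (-2.03), grif-1 (-1.90), gap-3, a Ras GTPase-activating protein (-1.82), mob-1 (-1.82), rnp-1 (-1.80), algn-14 (-1.80) and gln-5, a glutamine synthetase (-1.77). cdc-25.3 measured 2259, 2026 and 2369.5 in the total libraries and 522, 427 and 541 in the fraction libraries (log2 ratio -2.16 ± 0.15 (SE), adjusted p = 4.43e-07). gln-5 measured 12636, 13645 and 16463 in the total libraries and 4551, 3807 and 4100.2 in the fraction libraries, and gap-3 1036, 1425 and 1118 in the total libraries and 451, 664 and 123.2 in the fraction libraries. The gap-3 fraction values spread widely, yet all lay below the lowest total.

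Histone mRNAs fell too: of 55 tested, 33 fell and 4 rose (median -0.94). Core histone genes come in near-identical copies and their reads are not told apart. htz-1, the variant H2A.Z, measured 19095, 21090.0 and 24802 in the total libraries and 11537, 8285 and 10095 in the fraction libraries (log2 ratio -1.12 ± 0.17 (SE), adjusted p = 0.000166), hil-5, a linker histone, fell by 1.13, and his-35 rose by 0.73. Histone risers numbered 7 without fraction replicate 3. RNA-handling factors leaned the same way. Of 29 mRNA decay mRNAs 14 were lower (48.3%, against 23.1% of all genes) and 1 higher (median -0.39). Of 29 splicing mRNAs 10 were lower (34.5%) and 6 higher (20.7%, near the 20.6% of all genes), with a median of -0.18. cgh-1, the DEAD-box helicase of P bodies, measured 58594, 69707 and 69712 in the total libraries and 41800.2, 42714 and 26549 in the fraction libraries (-0.86, adjusted p = 0.00398), smg-6, the nonsense-mediated decay nuclease, fell by 0.95 and rsp-3, an SR splicing factor, by 0.94. Some members rose: snr-7, an Sm core protein, measured 1954, 2053 and 2246 in the total libraries and 4667, 4172 and 4687 in the fraction libraries (1.11, adjusted p = 3.68e-05), and lsm-3 rose by 0.68. Regulators fell more often than they rose, 33 of 177 nuclear hormone receptor mRNAs falling against 3 rising, and 42 of 236 F-box, BATH and MATH domain mRNAs against 11. The fallers are 18.6% and 17.8% of these lists, below the 23.1% of all genes. nhr-23, a molting regulator, and bath-42 both fell, by 1.03 and 1.03. The risers among the nuclear hormone receptors numbered 0 without total replicate 2 or fraction replicate 2, 1 without total replicate 3 and 5 without fraction replicate 1; those of the F-box list numbered 6 without total replicate 3 or fraction replicate 3, 7 without fraction replicate 2 and 17 without fraction replicate 1.

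The tissue marker lists outside the germ line are read beside the 20.6% of all genes that rose. Of 30 body wall muscle mRNAs 13 rose (43.3%) and 1 fell (median 0.44). pat-10, troponin C, measured 29184, 30797 and 25400.0 in the total libraries and 59318, 48436 and 57715 in the fraction libraries (log2 ratio 0.95 ± 0.17 (SE), adjusted p = 0.000587), and pfn-3, a profilin, rose by 1.102, while pat-3, a beta integrin, fell by 0.73. Of 29 intestine mRNAs 15 rose (51.7%) and 1, the haem transporter hrg-1, fell; the risers numbered 6 without total replicate 1, 7 without total replicate 3 and 9 without fraction replicate 1. dct-16 measured 28698, 28250.2 and 31977 in the total libraries and 65159.5, 55565 and 78476 in the fraction libraries (1.15, adjusted p = 0.000218), and mtl-2, a metallothionein, rose by 1.07. Of 38 neuron mRNAs 8 rose (21.1%, near the share of all genes) and 4 fell, the risers ranging from 3 without total replicate 3 to 13 without fraction replicate 3, with 5 without total replicate 1 and 4 without fraction replicate 1, and the fallers numbering 7 without fraction replicate 1. cpx-1, complexin, rose by 1.00 and unc-57, endophilin, fell by 0.90. In the epidermis 6 of 28 rose (21.4%, also near that share) and 2 fell, 4 without fraction replicate 2; lin-26, its fate regulator, measured 4246, 4558 and 4899 in the total libraries and 1662, 1859 and 1109 in the fraction libraries (log2 ratio -1.60 ± 0.18 (SE), adjusted p = 1.80e-05). Of 132 collagen mRNAs 107 had a ratio above 0 (median 0.31), and 3 fell (2.27%, against 23.1% of all genes). The fallers numbered 6 without fraction replicate 1 and 1 without total replicate 3 or fraction replicate 2. As a share of normalized counts the list went from 2.90 ± 0.218% to 3.88 ± 0.709% (SD, n = 3). The collagen risers numbered 17 (12.9%, against 20.6% of all genes). That count was 2 without fraction replicate 1, 5 without total replicate 3, 7 without total replicate 1, 9 without total replicate 2, 31 without fraction replicate 2 and 36 without fraction replicate 3. None of the 6 vitellogenin mRNAs, for yolk proteins and near-identical in part, passed, though all 6 ratios lay above 0 (0.12 to 0.48). For vit-5 the ratio was 0.26, adjusted p = 0.353.

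Transcripts that make no protein fell more often than they rose. Of 546 pseudogenes 220 fell and 13 rose (median -0.54), of 47 lincRNAs 24 fell and 2 rose (median -0.69), of 101 other noncoding RNAs 40 fell and 6 rose (median -0.59), and of 15 snoRNAs 7 fell and none rose (median -0.89). By comparison 3126 of 14094 protein-coding genes fell. The pseudogene count lay between 154 and 228 when single libraries were left out; its risers numbered 8 without total replicate 2 or fraction replicate 3 and 6 without total replicate 3, and the lincRNA risers 4 without fraction replicate 2. srpr-2.1, one of a near-identical pair of noncoding RNAs, measured 81.5, 82 and 92 in the total libraries and 1.26, 0.537 and 0 in the fraction libraries. linc-1 was a riser at low level, with 7.83, 5.26 and 5.28 in the total libraries and 21.7, 19.2 and 24.4 in the fraction libraries (1.69, adjusted p = 0.00322).

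The size of the coding region went with the ratio. The median log2 ratio was 0.60 for 751 mRNAs with under 300 coding bases, 0.42 for 2364 from 300 up to 600, 0.03 for 4806 from 600 up to 1200, -0.11 for 4483 from 1200 up to 2400 and -0.06 for 1690 with 2400 or more. In the shortest class 48.9% rose and 11.3% fell, and in the longest 10.1% rose and 15.1% fell. Across 14094 genes Spearman's rho of coding length and ratio was -0.25, and genes outside every list gave the same order of medians (0.61, 0.38, 0.01, -0.11 and -0.06). Relative to the mean of the totals, the fraction libraries had medians of 0.54, 0.51 and 0.77 in the shortest class and 0.06, 0.03 and -0.28 in the longest, with fraction replicate 3 apart from the other two at both ends. The total libraries stayed within -0.06 to 0.06. Median abundance also differed between the classes, at 109 normalized counts in the shortest and 2069 in the longest, and its part in the ratio was not tested.

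**Figure D3:**
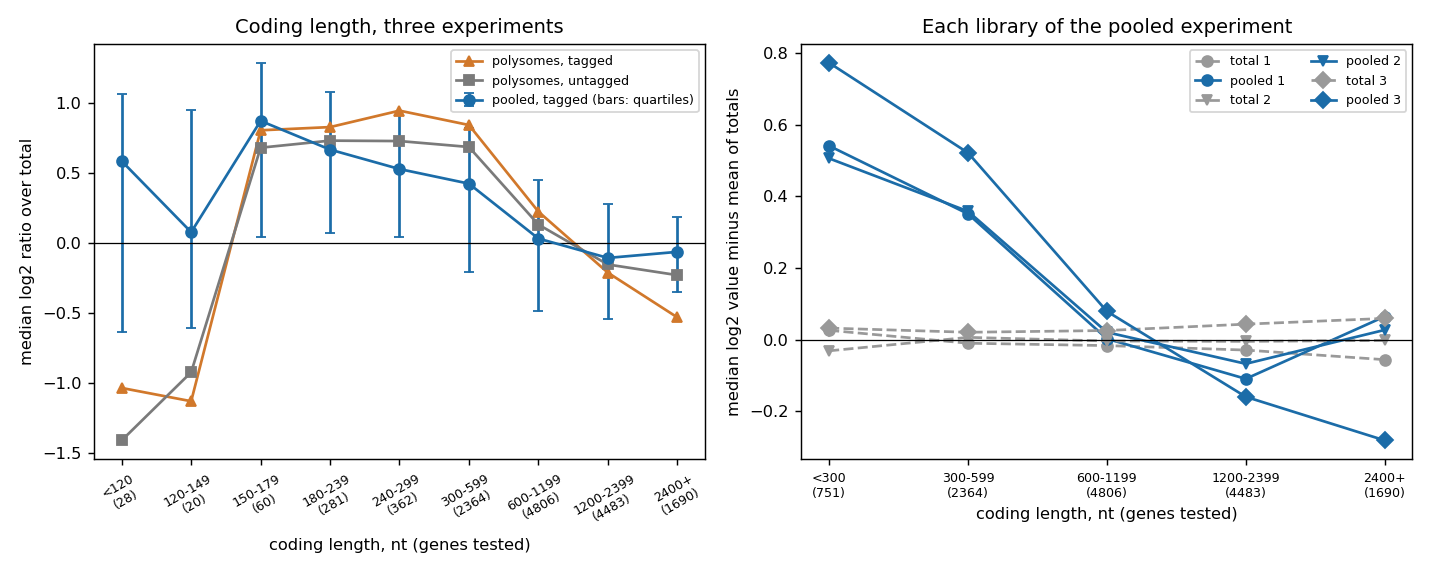
Left, median log2 ratio of fraction over total by coding length class for the 3 experiments, with quartile bars for the pooled fractions; right, the median of each pooled library relative to the mean of the totals. The classes from 150 up to 600 bases lie highest in both polysome experiments, where the classes under 150 bases lie below 0. In the pooled fractions every class under 600 bases lies above the longer ones, that from 120 up to 150 only just (0.08 against 0.03). Fraction replicate 3 is the lowest library in the longest class.

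The length of the 3′UTR went with the ratio as well. Medians were 0.32 for 4604 mRNAs with 3′UTRs under 100 bases, 0.07 for 3904 from 100 up to 200, -0.13 for 2927 from 200 up to 400 and -0.40 for 1616 with 400 or more; 1043 genes with no annotated 3′UTR had a median of -0.05. The share that rose dropped from 33.6% to 3.28% between the shortest and the longest class, and the share that fell went from 11.4% to 39.5%. Spearman's rho was -0.37 across 13051 genes. Within mRNAs with an annotated 3′UTR under 100 bases the medians still ran from 0.87 in the shortest coding class to 0.15 in the longest. With a 3′UTR of 200 bases or more they were 0.06, 0.02, -0.28, -0.34 and -0.15, from the shortest coding class to the longest. There the longest class lay above that from 1200 up to 2400, so the decline was not steady. Both features moved with the ratio. Median abundance was 203 normalized counts in the shortest 3′UTR class and 1278 in the longest, and its part was not tested. The 5′UTR showed little: class medians lay between -0.06 and 0.13. Genes are not independent replicates, and no p is given for these descriptions.

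**Figure D4:**
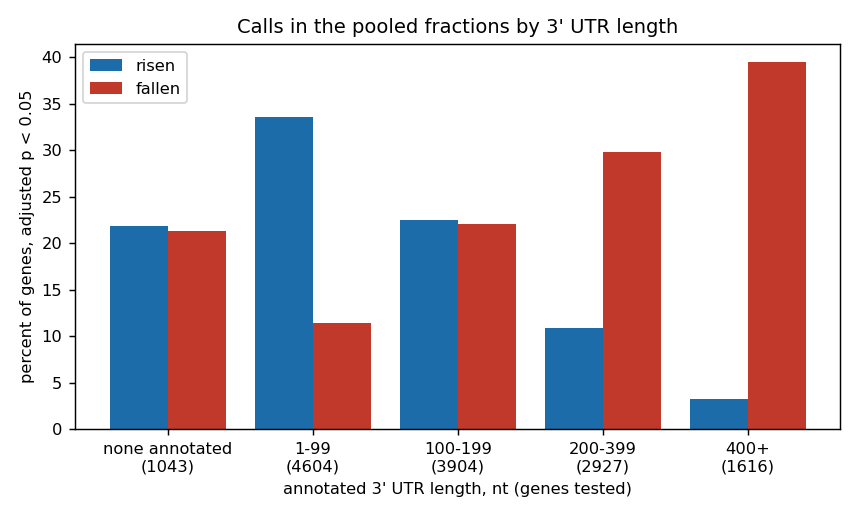
Percent of tested genes that rose and that fell (y axis) by length class of the 3′UTR (x axis). The share that rose declines and the share that fell climbs from the shortest class to the longest.

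Set beside the polysome-only experiments, the pooled fractions gave a similar ranking of genes, most of them with smaller ratios. Across 14481 genes the ratio correlated with that of the tagged-strain polysomes (Pearson's r 0.86, Spearman's rho 0.88, slope 0.51), and its SD over genes was 0.669 against 1.126 in the polysomes; the ratio was nearer 0 in the pooled fractions for 11692 genes. Of the 5664 genes that passed in both, 5654 moved the same way. Against the wild-type polysomes r was 0.79 over 14439 genes with 5627 of 5653 in the same direction. nos-2 had ratios of -2.28 in the pooled fractions, -3.76 in the polysomes of the tagged strain and -3.14 in the wild-type polysomes, and rps-23 had 0.83, 1.34 in the polysomes of the tagged strain and 1.31 in the wild-type polysomes. The mitochondrially encoded list had medians of -1.01, -2.55 and -2.51, and the nuclear oxidative phosphorylation list 0.65, 1.21 and 1.34. Histones had medians of -0.94, -0.66 and -0.83, furthest from 0 in the pooled fractions. In the test described below, 0 of 56 passed against the tagged-strain polysomes. Against the wild-type polysomes 9 of 56 were lower (11% of all genes were). These median differences, -0.25 and -0.26, became 0.00 and 0.13 with libraries scaled to equal sums. The F-box, BATH and MATH list had -0.24, -0.05 and -0.60, the polysome medians taken only over members also tested there. Its median difference from the tagged-strain polysomes was 0.06, with 17 of 242 higher (5.87% of all genes were) and 1 lower.

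**Figure D5:**
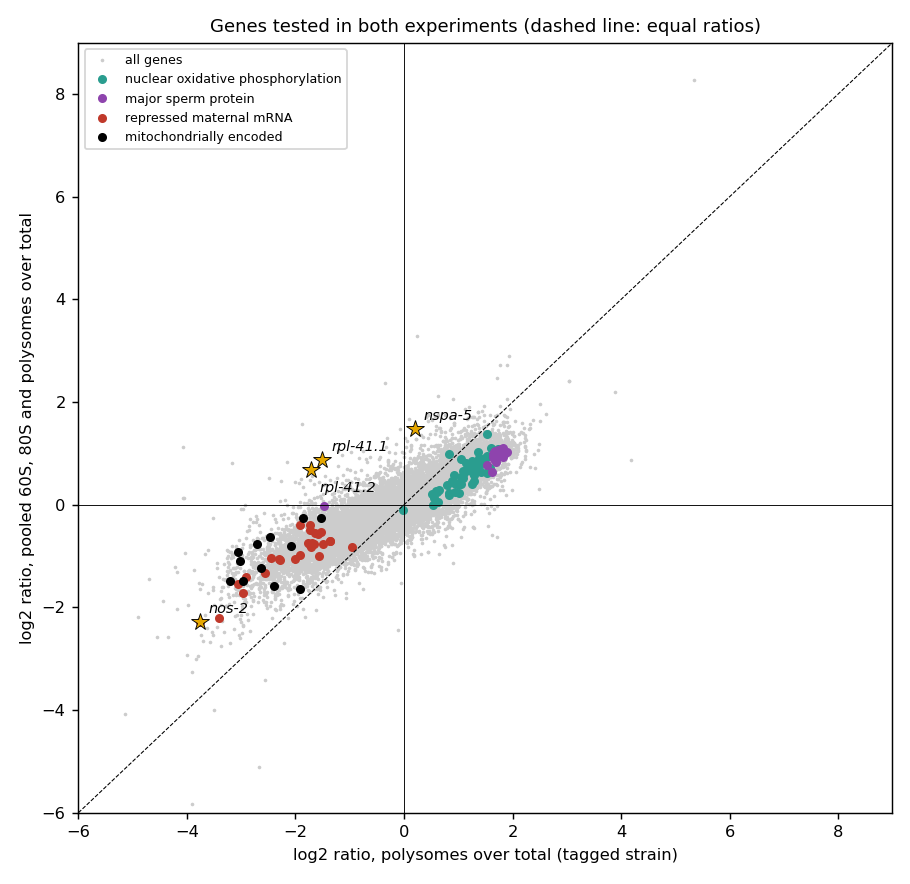
Log2 ratio of each gene in the pooled fractions (y axis) against that in the polysomes of the tagged strain (x axis), with 4 named mRNAs marked by stars. rpl-41.1 and rpl-41.2 lie above 0 on the y axis and below 0 on the x axis, nspa-5 (WBGene00013887) is above 0 on both, and nos-2 is low on both.

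The difference itself was tested in a fit over 12 libraries. Of 14743 genes, 865 (5.87%) had a higher ratio in the pooled fractions than in the tagged-strain polysomes and 70 (0.475%) a lower one. That count of 935 was not stable: it was 106 without pooled total replicate 2, 284 without pooled total replicate 1, 467 without pooled total replicate 3, 391, 544 and 471 without pooled fraction replicate 1, 2 or 3, and 451, 514 and 154 without polysome total replicate 1, 2 or 3. By list, 7 of 12 mitochondrially encoded, 9 of 27 repressed maternal and 143 of 533 pseudogene transcripts were higher. Without pooled total replicate 2 these counts were 4, 1 and 31, and without polysome total replicate 3 they were 4, 1 and 44; leaving out most other single libraries lowered the maternal and pseudogene counts as well. Against wild-type polysomes 1695 of 14802 genes (11.5%) were higher and 1635 (11%) lower, a total of 3330 that fell to 1605 without pooled total replicate 2 and 1929 without wild-type total replicate 2, and to 1803 and 2084 without wild-type polysomes replicate 1 or 2. After scaling all libraries to one sum the split was 3629 higher and 528 lower, so a direction across the transcriptome depends on the scaling. There, 28 of 29 major sperm protein mRNAs were lower and 10 of 12 mitochondrially encoded mRNAs higher under the authors' scaling. The genotype differs between these last experiments as well as the fractions, and the tag and the fractions cannot be told apart.

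Among named genes of at least median abundance, the largest differences from both polysome experiments were those of rpl-41.2 and rpl-41.1. rpl-41.2, which encodes ribosomal protein eL41 in 66 coding bases (WBGene00023068, chromosome I, 4790292 to 4790642, WBcel235), measured 78140.3, 75685 and 86979 in the total libraries and 132820.5, 103457 and 150814 in the fraction libraries, a rise (log2 ratio 0.67 ± 0.20 (SE), adjusted p = 0.0155) that did not pass without total replicate 2 (adjusted p 0.0854) or fraction replicate 3 (0.0686). In the tagged-strain polysome experiment the same mRNA measured 60494, 81839 and 61789 in the total libraries and 28426, 17451 and 17258 in the fraction libraries, and in the wild type 58214, 64818 and 70619 in the total libraries and 19433, 21914 and 14484 in the fraction libraries. Every polysome library there held less than every total. The difference in log2 ratio was 2.39 (adjusted p = 0.00403) from the tagged strain and 2.48 from the wild type. rpl-41.1, its near-identical copy, measured 2874, 2772 and 2923 in the total libraries and 4925, 4648 and 6248 in the fraction libraries (0.87, adjusted p = 0.00037 for the log2 ratio) and 2469.9, 3107 and 2294 in the total libraries and 1158, 760.3 and 871 in the fraction libraries in the tagged-strain polysome experiment, a difference of 2.38 (adjusted p = 0.00244).

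Among other mRNAs of that size the difference varied in size and clarity. nspa-1 and nspa-5, nematode-specific peptides of 102 coding bases on chromosome V whose copies share reads, were among the 12 furthest risers with a gene name and at least median abundance. nspa-1 is listed under 2 gene identifiers with identical values and fills 2 of those 12 places. nspa-1 measured 148, 164 and 216 in the total libraries and 656, 400.2 and 695 in the fraction libraries (log2 ratio 1.70 ± 0.21 (SE), adjusted p = 4.35e-05), and one of the 2 genes named nspa-5, WBGene00013887, 384, 378 and 419 in the total libraries and 1382, 872 and 1092 in the fraction libraries (1.48, adjusted p = 2.26e-05). The other, WBGene00044272, measured 543, 461 and 503 in the total libraries and 1086, 828 and 1226 in the fraction libraries (1.04, adjusted p = 0.000215). For nspa-1 and WBGene00013887 the polysome ratios were 0.41 and 0.20 in the tagged strain, both above 0 unlike those of rpl-41.2, and 0.35 and 0.43 in the wild type. Their differences from the tagged strain, 1.29 and 1.28, did not pass (adjusted p = 0.0836 and 0.122). Those from the wild type, 1.35 and 1.04, did (adjusted p = 0.00768 and 0.0116). ostf-4, with 105 coding bases and chosen after its values were seen, rose by 0.64 here and had -0.91 in the polysomes of the tagged strain and -0.80 in the wild-type polysomes. Its differences, 1.55 from the tagged strain and 1.44 from the wild type, passed (adjusted p = 0.0172 and 0.00191). Over all 28 tested mRNAs under 120 coding bases, a class also drawn after the values were seen, the median was 0.59 in the pooled fractions, -1.04 in the tagged-strain polysomes and -1.41 in the wild-type polysomes. The difference from the tagged strain passed upward in 6 of 27, against 5.87% of all genes. That from the wild type passed upward in 16 of 28, against 11.5% of all genes. In this class nspa-1 and nspa-7 are each listed under 2 gene identifiers with identical values, and nspa-1 counts under both among the 16. The class also holds both rpl-41 genes and both genes named nspa-5. Its members are therefore not all separate measurements, which bears on these counts and medians. The 20 mRNAs from 120 up to 150 bases had medians of 0.08, -1.13 and -0.93. In the next classes, 60 mRNAs from 150 up to 180 bases and 281 from 180 up to 240, the pooled medians were 0.87 and 0.67 and the tagged-strain polysome medians 0.81 and 0.83. The remaining large risers were longer: txt-14, with 162 coding bases, measured 200.2, 161 and 137 in the total libraries and 525, 584 and 555 in the fraction libraries (log2 ratio 1.75 ± 0.17 (SE), adjusted p = 6.68e-06), and had 1.72 in the polysomes of the tagged strain and 1.47 in the wild-type polysomes. cpg-9, a chondroitin proteoglycan, rose by 1.39 and acbp-3, an acyl-CoA-binding protein, by 1.36.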

How the data were processed

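RNA of the gradient fractions and of the lysates was sequenced; the library chemistry is not given in the sources used here. The deposited tables hold, per gene, normalized counts (a signal, not whole reads) for each library beside the authors' own log2 fold change and adjusted p-value. The submitters' processing notes name kallisto 0.46.1, DESeq2 1.30.1, R 4.0.4 and build ce11, without their roles. Low values gave read depth only as an estimate, and 2.84 to 14.2% of values came out as whole reads within 0.01, so counts were not recovered and no count model was run. Of 17847 genes, 17815 matched the Ensembl release 115 annotation of WBcel235 and 16928 had a symbol there; mitochondrial mRNAs without one took that of the RefSeq gene at the same place.

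Samples were grouped by their labels. Differences were tested two-sided with limma 3.58.1 (R 4.3.3; moderated with a trend) on log2(normalized count + 1), for genes averaging at least 10, with Benjamini-Hochberg adjustment over all genes tested and a threshold of 0.05; the fold changes of low genes are understated on this scale. Differences between experiments are interaction terms over 12 libraries. Tables were made with Python 3.11.15, pandas 2.3.3, numpy 2.4.6 and scipy 1.17.1, and figures with matplotlib 3.10.9. On simulated data with 200 of 14824 genes changed, 38% of 2-fold and 95% of 4-fold changes were recovered and 5.67% of calls were false. Far fewer genes changed there than the 6472 that passed in the data, so these rates need not hold for the data. Named genes are rpl-22, the 12 largest passing changes each way among protein-coding genes of at least median abundance (349 normalized counts) with no overlap, the 5 largest noncoding changes each way, the 3 most abundant members and 2 largest changes each way of each list, and the 8 largest differences each way. Genes known only by a sequence name were left out of the 12 and the 8 largest. Outside that rule, spn-4, zif-1, mom-2, puf-6, ND1, ND5, glp-1 and ostf-4 were chosen after their values were seen. Members and the 37 gene lists were chosen with earlier results of these data known. Alternatives were other pseudocounts, filters and scaling, the replicate number as a block, libraries left out and the authors' deposited table. Coding GC content and sequences were not analysed here.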

Additional observations from a re-analysis of the deposited data

Results flagged for a closer look

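The ratio of fraction over total was compared between experiments by a test of the difference, and these results are listed because that test passed. Against the polysomes of the tagged strain, 865 genes had a higher ratio and 70 a lower one in the pooled 60S, 80S and polysome fractions; against the wild-type polysomes these numbers were 1695 and 1635.

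Among abundant named genes, the log2 ratio in the pooled fractions exceeded that in the tagged-strain polysomes by 2.39 for rpl-41.2 and 2.38 for rpl-41.1, both encoding ribosomal protein eL41, by 1.98 for math-3, 1.96 for mtk-1, a MAP kinase kinase kinase, 1.87 for gon-4, 1.80 for alg-5, an Argonaute, 1.73 for rev-1 and 1.73 for trt-1, the telomerase reverse transcriptase. It was below that of the polysomes by the differences -1.09 for nspc-1, -1.06 for marg-1, -1.06 for phat-4, -1.05 for txt-17, -0.98 for asah-1, an acid ceramidase, -0.96 for mif-1, -0.95 for perm-2 and -0.95 for cyn-6, a cyclophilin. Of these 16 genes, 11 lost the call without pooled total replicate 2, 10 without polysome total replicate 3, 8 without each of pooled total replicate 1, pooled fractions replicates 2 and 3 and polysome total replicate 1, 6 without pooled total replicate 3, 5 without pooled fractions replicate 1 and 4 without polysome total replicate 2. The genes that kept the call without any single library were rpl-41.2, rpl-41.1, math-3, gon-4 and trt-1. When both pooled libraries of one replicate number were left out, 15 of the 16 genes lost the call at least once; rpl-41.1 kept it.

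Against the wild-type polysomes the difference was 2.48 for rpl-41.2, 2.29 for rpl-41.1, 2.12 for math-3, 1.81 for dnj-26, 1.80 for mdmh-35, 1.78 for mtk-1, 1.77 for ima-1, an importin alpha, and 1.75 for trt-1. It was -1.50 for vha-3, a vacuolar ATPase subunit, -1.36 for asah-1, -1.27 for perm-4, -1.27 for cut-2, a cuticle protein, -1.26 for col-168, a collagen, -1.24 for unc-95, -1.24 for marg-1 and -1.23 for far-2, a fatty acid and retinol-binding protein. Of these 16 genes, 1 gene, col-168, lost the call without pooled total replicate 2 or wild-type polysomes replicate 1. It also lost the call with equal sums (adjusted p = 0.0649). When both pooled libraries of replicate number 2 were left out, 4 lost the call: dnj-26, mdmh-35, cut-2 and col-168.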

How the results depend on the processing

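The total of 6472 genes that passed in the pooled fractions lay between 4553 and 6509 under every alternative run, within 1.5 times, including 4661 to 5643 with one replicate number left out and 6032 with the replicate number as a block. The labels do not say whether replicate numbers pair fraction and total libraries, and the main fit did not pair them. Deviations of same-numbered libraries correlated at -0.347, 0.096 and -0.011, which with 3 libraries a group cannot settle the question. Of 116 genes named, calls were lost by 4 without a single library (pab-1, rps-12, COX3 and rpl-41.2), by 11 without a replicate number, by 4 with the replicate block and by none with another scaling, filter or pseudocount. The signs of 2 genes that were never called turned: eef-2 to -0.092 without replicate 1 (up to 0.28 without replicate 2), and eef-1A.1 to -0.18 without replicate 1 (up to 0.20 without replicate 2), -0.088 without pooled total replicate 1 and -0.063 without pooled fractions replicate 1. The difference from the tagged-strain polysomes depended on single libraries and on the design: 935 genes became 343 with the replicate block (342 higher and 1 lower, against 865 and 70, and none of the 8 genes named as lower passed), 61, 7 and 34 without replicate number 1, 2 and 3 (both libraries of the pooled experiment), and 106 to 1331 without single libraries, chosen after the data were seen; the cause was not tested. Equal sums gave 1283. The difference from the wild-type polysomes went from 3330 genes to 772 to 3358 without a replicate number and 1605 to 4974 without single libraries; equal sums gave 4157 genes, with 87.3% rather than 50.9% higher. With 3 libraries a group, changes of 2-fold or less may go unresolved. How often was not measured, since the simulation changed far fewer genes than passed here.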

Other observations

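For the lists not described above the medians in the pooled fractions were -0.16 for chemoreceptors, -0.10 for entry into the endoplasmic reticulum and folding, 0.01 for the vacuolar ATPase, 0.02 for the proteasome, 0.03 for elongation and release factors, 0.06 for ribosome biogenesis, 0.16 for the pharynx and 0.32 for chaperones. Of the chaperones 6 of 24 rose (25%, against 20.6% of all genes) and none fell. By chromosome, medians were -0.11 for III, -0.07 for I, -0.05 for II, 0.07 for IV, 0.09 for X and 0.10 for V. The noncoding RNA tts-1, picked after its values were seen, averaged 595 normalized counts in the totals and 73.6 in the fractions (adjusted p = 1.95e-07), with log2 ratios of -3.84 in the tagged-strain polysomes and -4.36 in the wild-type polysomes.

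pud-1.1, a gene with a near-identical copy and also picked after its values were seen, was listed at 0, 1.08 and 0 in the totals and 433, 159.9 and 867 in the pooled fractions; its copy pud-1.2 measured 1304, 1287 and 1217 in the total libraries and 1728, 2206 and 1821 in the fraction libraries. In the polysome experiment of the tagged strain pud-1.1 was at 0, 269 and 0 in the totals and 565, 161 and 198.8 in the polysomes, and in the wild type at 0 in every total and 113, 147 and 0 in the polysomes. Reads of the copies are not told apart, so neither value alone is certain.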
